A study of Drosophila melanogaster with 39 samples.

Results

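The genes described here carry the JAK/STAT signal of Drosophila: the ligands upd1 (CG5993) and upd2 (CG5988), the receptor dome (CG14226), the related receptor et (CG14225), the kinase hop (CG1594), the transcription factor Stat92E (CG4257) and the feedback inhibitor Socs36E (CG15154). They were chosen by name, with earlier results of these data known. Each of the 7 has 1 probe among the 16361 gene probes of the array, which stand for 11436 named genes. Every array set 2 amplified RNA samples of imaginal discs against each other, and 39 arrays were used.

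In this pathway a secreted Unpaired protein binds the receptor Domeless, the kinase Hopscotch bound to the receptor is activated, and the STAT protein is phosphorylated and moves to the nucleus. Socs36E is switched on by the pathway and dampens it, so its transcript is often read as a measure of pathway output. In imaginal discs the pathway is known for its part in growth, in the response to wounding and in regeneration.

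Transdetermining (TD) cells are leg disc cells that turn to a wing fate when the signalling protein Wingless (Wg) is made throughout the disc. They were set against other dorsal cells of such discs, D(wg), on 3 arrays, against ventral cells, V(wg), on 5 arrays, and against D(wt) cells, from the dorsal part of wild-type discs, on 2 arrays. D(wg) and V(wg) cells were compared on 3 arrays, and D(wt) and V(wt) cells on 3 arrays. Whole Wg-expressing first leg discs (6 arrays), regenerating second leg fragments (4 arrays) and wild-type first leg discs (4 arrays) were each set against 1 common reference, a pool of amplified RNA from leg discs of all 3 thoracic segments, taken from wild-type larvae of both sexes. In a further 9 arrays wild-type wing discs were paired with a leg disc from the same animal, and each of the 3 leg segments was used on 3 of them.

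The Wg-expressing larvae carried y,w,hs-flp together with the reporter vgBE-GAL4/UASGFP and the construct Actinc5, FRT y+, FRT, wg+, so TD, D(wg) and V(wg) cells share these transgenes. They also share the heat shocks at 60 and 72 h after egg laying that switched on Wg in over 90% of disc cells. Discs were taken 3 days after the heat shock. TD cells were cut out by the green fluorescence of the vgBE reporter, D(wg) cells are the dorsal cells without it, and these fragments were pooled from 4 to 8 discs. The wild-type discs came from male OregonR larvae at the late, wandering stage of the last instar, and no heat shock is stated for them. Whole discs, wild-type or Wg-expressing, came from a single larva each, which is not stated for the D(wt) and V(wt) cells. Regenerating cells came from 3/4 fragments grown for 3 to 5 days in the abdomen of adult females. The sex of the Wg-expressing larvae is not stated, and upd1, upd2, dome, et and hop lie on the X chromosome, so sex and Wg expression cannot be told apart for them.

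Each value below is a log2 ratio centred on its array's median, with the sample named first on top, so a positive value says that this sample had more of the transcript. A change is called when its Benjamini-Hochberg adjusted p from limma, over all probes tested in that comparison, is under 0.05. In these bulk samples fewer cells of a type and less RNA per cell cannot be told apart.

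The wing gene vg, which marks transdetermining cells, was positive in TD over D(wg) cells (5.00 and 2.51 on 2 arrays) and in TD over V(wg) cells (3.24 to 5.17 on 4 arrays), as their labels say. The gene switched on, wg, has 2 probes that disagree in sign in Wg-expressing discs over the reference. The probe named wg read 0.80 to 1.79 on the 6 arrays (1.36 ± 0.22, limma adjusted p = 4.31e-05), and the probe CG4889 read -1.27 to -0.24 (-0.64 ± 0.25, limma adjusted p = 0.0632). The label of 1 other set of arrays goes against its data. On the 2 arrays labelled TD against D(wt), spots for green fluorescent protein had medians of -1.96 (16 spots) and -5.04 (34 spots), although only the TD larvae carry that gene. The reporter medians were 4.10, 4.06 and 4.69 on the TD against D(wg) arrays and between 0.69 and 4.55 on the TD against V(wg) arrays. The vg gene was also negative on both arrays labelled TD against D(wt), at -1.73 and -1.77, and 11 of the 12 correlations between these arrays and the Wg-against-reference arrays lay under -0.3 (range -0.47 to -0.30). The other TD arrays did not show this so clearly: 0 of 6 correlations with TD against D(wg) arrays (range -0.20 to 0.20) and 2 of 10 with TD against V(wg) arrays (range -0.39 to 0.10) lay under -0.3. The probe named wg read -5.63 and -3.74 on the 2 arrays labelled TD against D(wt), although Wg was switched on only in the TD larvae. CG4889 had a value on 1 of them, -0.27. The reporter, vg and wg therefore go against the labelled direction, but the labels do not settle it. Results of these 2 arrays are given as labelled and turned. No other fitted ratio uses their values, but they enter each probe's variance and the correlations between genes given below.

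Values were sparse for some genes. An array held between 2969 and 14650 values, and spots without a deposited value carry no level. Across the 39 arrays hop and Stat92E had a value on 39, Socs36E on 36, upd1 on 35, dome on 27, upd2 on 18 and et on 8. Under the rule that each group needs a value on most of its arrays, 3 to 7 of the 7 genes were tested in a comparison.

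upd1, the founding ligand of the pathway, was far higher in TD cells than in the cells around them. Against V(wg) cells it read 4.28, 4.94, 3.78, 3.10 and 3.44 on the 5 arrays. Against D(wg) cells it read 3.76, 1.58 and 1.50 on the 3 arrays. Every one of these 8 arrays was positive, and the lowest of the TD against V(wg) arrays lay above 2 of the 3 TD against D(wg) arrays.

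The fit put upd1 at 3.93 ± 0.33 (SE, n = 5) against V(wg) cells, a 15.2-fold difference (limma adjusted p = 4.6e-09), which ranked 8 by p among 8716 probes. Against D(wg) cells it was 2.31 ± 0.43 (SE, n = 3), a 4.96-fold difference (limma adjusted p = 0.00127, rank 82 of 9189 probes). Without the first TD against D(wg) array, the highest of the 3, the value was 1.54 (limma adjusted p = 0.0262), and it stayed called. Called members numbered 2 of 6 tested in TD against V(wg) cells, where 13.4% of all probes were called, and 1 of 6 in TD against D(wg) cells, where 17.8% were.

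Dorsal and ventral cells of Wg-expressing discs did not show a steady difference in upd1. Its values were 1.20, -0.88 and 2.28 on the 3 arrays of D(wg) against V(wg), a fitted value of 0.84 ± 0.43 (SE), with an interval of -0.04 to 1.72 and a limma adjusted p of 0.265. The second array stood below the others: it gave the only negative upd1 value, and the secreted relaxin-like peptide gene Ilp8 went the same way, at -1.65 against 3.92 and 7.15 on the first array and the third. On that array wg read -4.23 with the probe CG4889, where the first array and the third read -3.71 and -3.65. Its other probe read -0.80 there, and -1.43 and -1.20 on those arrays, so both wg probes were lower in D(wg) than in V(wg) cells on all 3.

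Without that second array upd1 was 1.74 ± 0.43 in D(wg) over V(wg) cells (limma adjusted p = 0.224). It was 0.57 ± 0.55 without the first array and 0.16 ± 0.48 without the third (limma adjusted p = 0.635 and 0.85). None of the 5 tested members was called in D(wg) against V(wg) cells (0 of 5 at an unadjusted p under 0.05), where 0.266% of all probes were. Of 9399 probes there, 1909 had an unadjusted p under 0.05. In wild-type discs upd1 read 0.63 and 0.43 on the 2 arrays of D(wt) against V(wt) that had a value, 0.63 ± 0.54 in the fit (limma adjusted p = 1.0). There too 0 of 5 members were called and 0 had an unadjusted p under 0.05. Of 7207 probes, 0.694% were called and 219 had an unadjusted p under 0.05. The change in the dorsal-ventral ratio of upd1 was 0.21 ± 0.70, with an interval of -1.23 to 1.65. For that change limma called 0 of 4 members tested (0 at an unadjusted p under 0.05) and 0.115% of probes. Of 6929 probes, 705 had an unadjusted p under 0.05.

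The 3 cell populations were also compared in a loop. upd1 was 3.93 in TD over V(wg) cells measured directly, and 3.15 when TD over D(wg) and D(wg) over V(wg) were added. The gap of 0.78 ± 0.69 did not pass the test (limma adjusted p = 0.996). No member did in that contrast, 0 of 5 tested (0 at an unadjusted p under 0.05), and 0% of all probes were called (264 at an unadjusted p under 0.05).

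**Figure D1:**
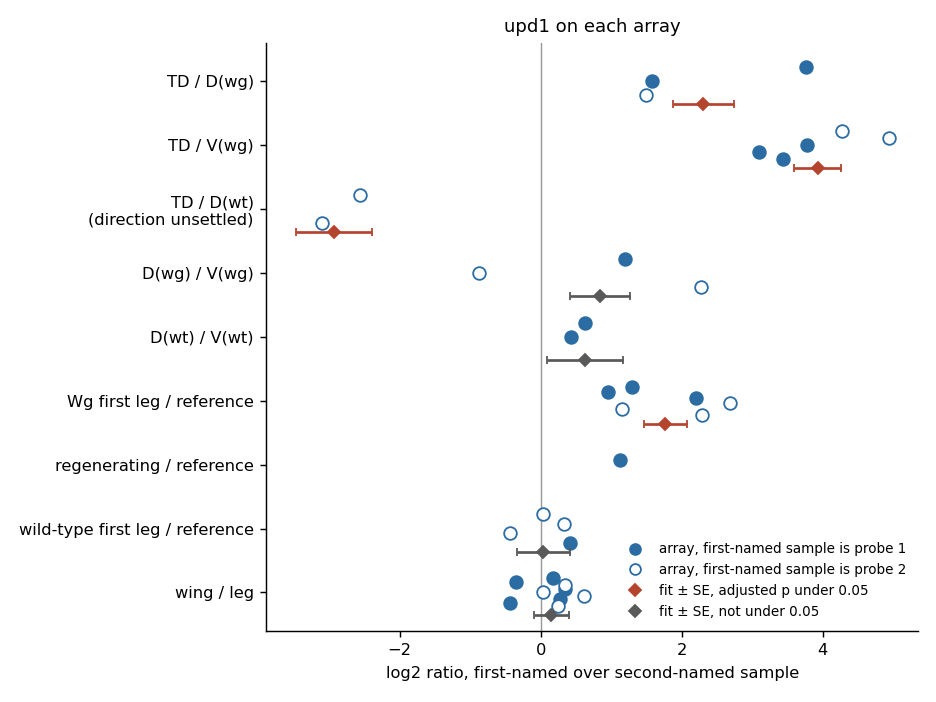
Log2 ratio of upd1 on each array (circles, filled or open by dye orientation) for each comparison, with the fitted value ± SE as a diamond, red where the adjusted p is under 0.05. The 8 arrays of TD over D(wg) or V(wg) cells run from 1.50 to 4.94, while wing over leg and wild-type first leg over reference arrays lie within -0.44 to 0.62; the 2 arrays labelled TD / D(wt) have an unsettled direction.

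Whole Wg-expressing first leg discs also had more upd1 than the reference. The 6 arrays read between 0.95 and 2.69 with a median of 1.75, and the fit gave 1.77 ± 0.30 (SE, n = 6), 3.40-fold (limma adjusted p = 0.000151). Wild-type first leg discs against the same reference read 0.04, 0.33, -0.44 and 0.41, 0.04 ± 0.38 in the fit (limma adjusted p = 0.957). The upd1 values of the 2 groups did not overlap, and how many other probes separate in this way was not counted.

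Members called in Wg-expressing discs against the reference were 2 of 7, upd1 and Stat92E, where 21.1% of probes were called. In wild-type first leg discs against the reference they were 0 of 5 (0 at an unadjusted p under 0.05), where limma called 17.8% of probes. Of 7912 probes there, 2705 had an unadjusted p under 0.05. The contrast between the groups put upd1 at 1.73 ± 0.48 in Wg-expressing over wild-type first leg discs, 3.31-fold (limma adjusted p = 0.0299). It was the 1 member called of 5 in that contrast, where 6.64% of probes were.

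That contrast is not firm. The call was lost when any of 6 single arrays was left out, namely wild-type replicates 1, 2 and 3 and Wg replicates 3, 4 and 6, with values of 1.53 to 1.79 and adjusted p of 0.0568 to 0.0865. Slide series is read here from the slide numbers in the titles. The Wg arrays had numbers of series 7 and 6 and the wild-type arrays of series 5 and AK93, so slide series and Wg expression cannot be told apart. Heat shock and stock differ between the groups as well. Fat body genes moved with this contrast: of the 6 listed, 4 were tested and 3 were higher in Wg-expressing discs, Lsp1gamma by 4.30, Lsp2 by 3.31 and Fbp2 by 2.96. The mean of this list against the reference lay between -0.26 and 0.36 on Wg arrays and between -3.04 and -2.65 on wild-type arrays. Its part in the upd1 result was not tested.

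upd1 did not differ detectably between wild-type wing and leg discs. Its 9 arrays ran from -0.43 to 0.62 with a median of 0.24, and the fit gave 0.15 ± 0.25 with an interval of -0.36 to 0.66 (limma adjusted p = 0.938). No member passed in wing against leg discs, 0 of 5 tested by limma with 2 at an unadjusted p under 0.05 (dome and Socs36E). Of 6401 probes, 4.5% were called and 717 had an unadjusted p under 0.05. Among leg segments compared through the wing disc, limma called 0 of 5 members in each of the 3 contrasts, where 0.014%, 0% and 0% of probes were called (81, 56 and 59 probes at an unadjusted p under 0.05). There 1 member in 1 contrast had an unadjusted p under 0.05, dome in second legs over those of the third segment, at 0.70 ± 0.25 (adjusted p = 1.0).

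In regenerating fragments upd1 had a value on 1 of 4 arrays, 1.12 against the reference, and was not tested.

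On the 2 arrays labelled TD against D(wt), upd1 read -2.57 and -3.10. The fit as labelled gave -2.93 ± 0.54 (limma adjusted p = 0.00123), and with both arrays turned it gave 2.74 ± 0.54 (limma adjusted p = 0.0021). upd1 was the 1 member called of 5 either way. Of 7744 probes, 9.41% were called as labelled, and 637 were called with both arrays turned. Both arrays have the same dye orientation, so the dye effect there rests on the other comparisons. The other 4 members tested on these arrays were not called as labelled, nor turned. With only these arrays and no dye term hop and Stat92E were also called as labelled, at -0.59 and -0.71 (limma adjusted p = 0.0445 and 0.0244).

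upd2, a second ligand of the family, was called in 1 comparison, with a smaller ratio than upd1 had there. In TD over V(wg) cells it read 0.40, 0.56, 0.43 and 0.29 on the 4 arrays with a value, and the fit gave 0.39 ± 0.09, 1.31-fold (limma adjusted p = 0.016). This call was lost without the second or the third array (0.36 both times, limma adjusted p = 0.094 and 0.0695). In TD over D(wg) cells upd2 read 0.58 and 0.11 on 2 arrays, 0.35 ± 0.13 in the fit, which did not pass (limma adjusted p = 0.0806).

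upd2 was called in no other comparison. In Wg-expressing discs over the reference the 4 arrays read 0.17, 0.18, 0.15 and 0.05 (0.14 ± 0.09, limma adjusted p = 0.31). In D(wg) over V(wg) cells the 3 arrays read -0.03, 0.05 and 0.02. Single arrays gave 0.46 in regenerating fragments and 0.28 in wild-type first leg discs, both over the reference, and -0.22 in D(wt) over V(wt) cells. The arrays labelled TD against D(wt) read -0.30 and -0.20. All 6 arrays of TD over D(wg) or V(wg) cells that had a value were positive. The lowest of them, 0.11, lay above the highest D(wg) over V(wg) value, 0.05. How many other probes separate in this way was not counted.

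The genes for upd2, upd3 and upd1 sit together on the X chromosome, with 1 protein-coding gene between upd2 and upd3 and 0 between upd3 and upd1 in the release 6 annotation. upd3, the third ligand, was not chosen as a member but is given here as a neighbour. Its probe CG5963 had 13 values, of which 1.26 on 1 TD against D(wg) array was the highest. On 3 TD against V(wg) arrays it read 0.36, 0.47 and 0.53. Against the reference, Wg-expressing discs read 0.36, 0.47 and 0.41 on arrays where they were probe 1, and -0.40 and -0.27 where they were probe 2, so its sign there followed the dye. A further upd3 probe, CG15062, read 0.28 on 1 TD against V(wg) array and -0.14 on 1 D(wg) against V(wg) array.

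dome, the receptor for all 3 ligands, was positive on every array of TD against D(wg) or V(wg) cells that measured it but did not pass the test. It read 0.71 and 0.31 over D(wg) cells (0.51 ± 0.19, 1.42-fold, limma adjusted p = 0.0721) and 0.66, 0.25, 0.23 and 0.31 over V(wg) cells (0.31 ± 0.14, limma adjusted p = 0.16). The intervals were 0.11 to 0.92 and 0.02 to 0.60. With a dye term for each slide series the first of these was called (limma adjusted p = 0.0473). In Wg-expressing discs over the reference dome was -0.04 ± 0.12, within -0.30 to 0.21, and its 5 values lay between -0.16 and 0.11. On the 1 array labelled TD against D(wt) that measured it, dome read 0.61 as labelled, opposite in sign to upd1 there (-2.57). It was not tested in that comparison.

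et, which encodes a shorter receptor of the same family known to dampen signalling, lies next to dome with 0 protein-coding genes between them. It could be tested only in Wg-expressing discs over the reference, where its 4 values lay between -0.27 and 0.30 and the fit gave 0.00 ± 0.11 (limma adjusted p = 0.996). In TD over V(wg) cells its 3 values ran from -0.17 to 0.05, and the single value in TD over D(wg) cells was -0.44. The 1 negative Wg array was also the only one of the 4 with Wg RNA as probe 2.

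hop, the only JAK of the fly, had a value on every array and was called in no comparison. Its 39 values stayed between -0.65 and 0.56, the lowest of them on an array labelled TD against D(wt). In TD over D(wg) cells it was lower on all 3 arrays, at -0.16, -0.34 and -0.46, without passing the test (-0.31 ± 0.17, limma adjusted p = 0.195). In TD over V(wg) cells 4 of 5 arrays lay between -0.42 and -0.22 and the other at 0.52, for a fit of -0.15 ± 0.13 (limma adjusted p = 0.502).

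In regenerating fragments hop was -0.27 ± 0.15 against the reference, and -0.50 ± 0.21 against wild-type first leg discs (limma adjusted p = 0.0876). In Wg-expressing discs over regenerating fragments it was 0.47 ± 0.19 (limma adjusted p = 0.0628). Both contrasts went past the threshold without the second regenerating array, at -0.63 and 0.62. On the 2 arrays labelled TD against D(wt) hop was -0.62 ± 0.21 as labelled (limma adjusted p = 0.0625) and 0.56 ± 0.21 turned, called neither way.

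**Figure D2:**
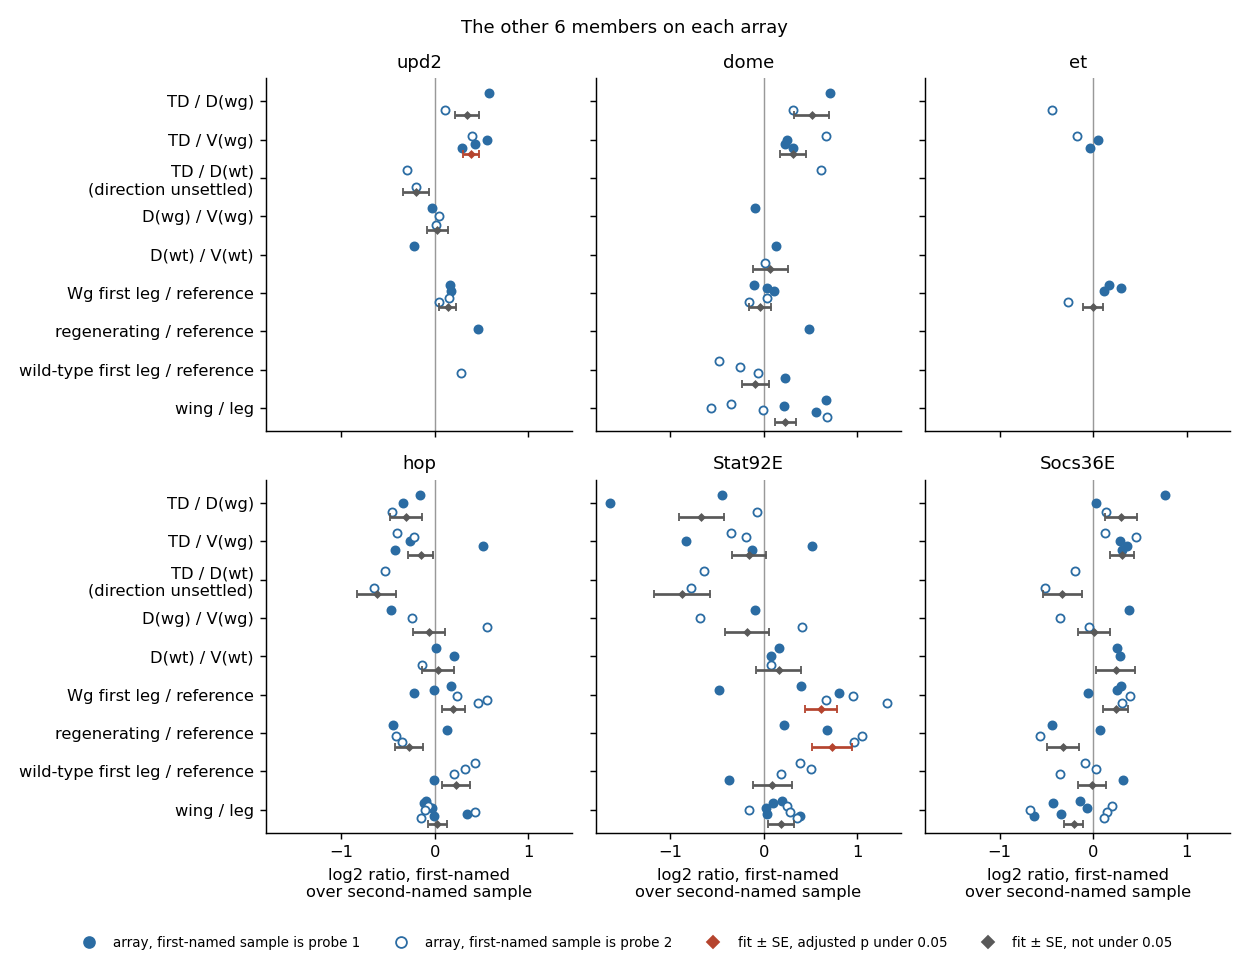
Log2 ratios of upd2, dome, et, hop, Stat92E and Socs36E on each array (circles, filled or open by dye orientation) with fitted values ± SE (diamonds, red where the adjusted p is under 0.05). All values lie between -1.65 and 1.32, and the 3 called values are upd2 in TD over V(wg) cells and Stat92E in Wg-expressing discs and in regenerating fragments over the reference.

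Stat92E, the STAT protein through which the signal reaches the genome, was higher than in the reference in both Wg-expressing discs and regenerating fragments. In Wg-expressing discs the 6 arrays read 0.40, -0.48, 0.80, 0.95, 0.66 and 1.32, and the fit gave 0.61 ± 0.17, 1.52-fold (limma adjusted p = 0.0099). In regenerating fragments the 4 arrays read 0.22, 0.68, 1.05 and 0.96, and the fit gave 0.73 ± 0.21, 1.66-fold (limma adjusted p = 0.00574). In all, 9 of these 10 arrays were positive.

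In regenerating fragments Stat92E was the 1 member called of 3 tested, where 40.6% of probes were called. Against wild-type first leg discs neither difference passed: 0.52 ± 0.27 for Wg-expressing discs (limma adjusted p = 0.256) and 0.64 ± 0.29 for regenerating fragments (limma adjusted p = 0.121). For regenerating fragments against wild-type first leg discs limma called 0 of 3 members (2 at an unadjusted p under 0.05), where 19.7% of probes were called. For Wg-expressing discs against regenerating fragments it also called 0 of 3 (2 at an unadjusted p under 0.05), where 27.1% were. Probes at an unadjusted p under 0.05 numbered 1319 of 3832 and 1464 of 3864 in these contrasts.

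Both calls of Stat92E were lost with only the arrays of the comparison and no dye term. The values were then 0.61 in Wg-expressing discs (limma adjusted p = 0.0893) and 0.73 in regenerating fragments (limma adjusted p = 0.104). With arrays scaled to a common spread the regenerating value was 0.44 (limma adjusted p = 0.151).

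Values of muscle and blood cell genes on the same arrays are given here. Of 6 genes of myoblasts and muscle, 5 were tested in Wg-expressing discs over the reference and 4 were lower, and the list's mean lay between -1.21 and -0.82. In regenerating fragments that mean lay between -1.32 and 0.84, and the haemocyte mean between 0.36 and 1.96. Of 7 haemocyte genes, 4 were tested in Wg-expressing discs over the reference, with 1 higher, 0 lower and a median of -0.13, and the list's mean lay between -0.05 and 0.47. The gene called was the scavenger receptor crq, at 0.78, and in regenerating fragments it was the 1 haemocyte gene tested, at 0.90. Over all probes 10.1% were higher and 11% lower in Wg-expressing discs, and 15.9% and 24.8% in regenerating fragments. Wild-type first leg discs over the same reference had 1 of 2 haemocyte genes tested higher, at 0.80. They had 3 of 6 muscle genes lower. There the haemocyte mean lay between 0.11 and 0.46 and the muscle mean between -1.49 and -1.01. Stat92E was 0.09 ± 0.21 there, and 7.77% of probes were higher and 10.1% lower. The part of these genes in the Stat92E result was not tested.

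Between cell populations of Wg-expressing discs most Stat92E values were negative. In TD over D(wg) cells the arrays read -0.45, -1.65 and -0.07, and the fit of -0.67 ± 0.24 fell just short of the threshold (limma adjusted p = 0.05003). All 3 arrays were negative, but the second carried the value: without it the fit was -0.26 (limma adjusted p = 0.604). In TD over V(wg) cells Stat92E was -0.16 ± 0.18 (limma adjusted p = 0.62), with 4 of 5 arrays negative. The haemocyte gene crq was lower in TD than in D(wg) cells by -1.34 and than in V(wg) cells by -0.90, and the haemocyte mean lay between -0.61 and -0.35 on the TD against D(wg) arrays. The other haemocyte gene tested, srp, was 0.35 over D(wg) and 0.19 over V(wg) cells and was not called (limma adjusted p = 0.138 and 0.365). Hml, NimC1 and eater, other haemocyte genes, had no value on those 3 arrays. Their part in these results was not tested.

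Socs36E, the feedback inhibitor, was positive in TD cells on all 8 arrays but passed the test in no comparison. It read 0.13, 0.46, 0.29, 0.36 and 0.31 over V(wg) cells (0.31 ± 0.13, 1.24-fold, interval 0.03 to 0.58, limma adjusted p = 0.129). It read 0.77, 0.03 and 0.14 over D(wg) cells (0.30 ± 0.17, interval -0.05 to 0.65, limma adjusted p = 0.218). The upd1 differences in the same cells were 3.93 and 2.31, and whether Socs36E follows upd1 was not tested.

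The other comparisons gave Socs36E values of both signs. In Wg-expressing discs over the reference it was 0.24 ± 0.13 (limma adjusted p = 0.203), and in D(wg) over V(wg) cells 0.01 ± 0.17. Wing over leg discs gave -0.21 ± 0.10 (limma adjusted p = 0.415). Regenerating fragments over the reference gave -0.32 ± 0.17 (limma adjusted p = 0.135), and the arrays labelled TD against D(wt) gave -0.33 ± 0.21 as labelled and 0.38 turned. Its value nearest to a call was 0.56 ± 0.21 in Wg-expressing discs over regenerating fragments (limma adjusted p = 0.0529).

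Over the members together, the median fitted log2 ratio was 0.32 for the 6 tested in TD over D(wg) cells, where that of all probes was 0.04, and 0.31 for the 6 in TD over V(wg) cells, where that of all probes was -0.01. It was 0.20 for the 7 in Wg-expressing discs over the reference, against -0.03 over all probes. In D(wg) over V(wg) cells both medians were 0.01. For the 3 members tested in regenerating fragments the median was -0.27 over the reference (all probes -0.07). Over wild-type first leg discs it was -0.31 (all probes -0.17). On the arrays labelled TD against D(wt) it was -0.62 for 5 members as labelled (all probes -0.03). The members were chosen with earlier results known, so these medians are descriptions and not a test.

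Other components of the pathway were taken from a list of 12 genes, all with a probe. In TD over D(wg) cells 2 of 9 tested were higher and 0 lower, where 10.4% of all probes were higher and 7.45% lower. In TD over V(wg) cells 1 of 9 was higher and 0 lower, where 6.9% of all probes were higher and 6.54% lower. These counts are close to the shares over all probes. The gene called in both was apt, a nuclear factor known to dampen STAT signalling in ovarian follicle cells. It read 1.58, 0.71 and 0.72 over D(wg) cells (0.99 ± 0.23, 1.99-fold, limma adjusted p = 0.00479). Over V(wg) cells it read 1.07, 1.47, 1.37, 1.00 and 0.36 (1.05 ± 0.18, 2.06-fold, limma adjusted p = 0.000203). All 8 arrays were positive.

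Su(var)2-10, the fly PIAS protein, which inhibits STAT, was the other component called in TD over D(wg) cells. It read 1.26 and 0.60 on 2 arrays (0.93 ± 0.19, limma adjusted p = 0.00651), and 0.51 and 0.23 on 2 arrays over V(wg) cells, where it was not tested. Socs44A, a relative of Socs36E, was not called in the TD comparisons with D(wg) or V(wg) cells.

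Ptp61F, a phosphatase that acts on the pathway, has probes that disagree. The probe counted above, CG9181f, was 0.37 ± 0.33 over D(wg) and 0.63 ± 0.25 over V(wg) cells and was not called (limma adjusted p = 0.458 and 0.0939). The probe CG9181g read 0.56, 1.39 and 1.14 over D(wg) cells (1.06 ± 0.23, limma adjusted p = 0.00338). Over V(wg) cells it read 1.55, 1.12, 0.18, 0.71 and 0.53 (0.83 ± 0.18, limma adjusted p = 0.00207), so it was positive on all 8 arrays and called in both.

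In Wg-expressing discs over the reference 3 of the 12 components were higher and 0 lower, where 10.1% of all probes were higher and 11% lower. They were ken, CycD and Cdk4. ken encodes a repressor that blocks a subset of STAT target genes. It read between 0.80 and 2.44 on the 6 arrays (1.60 ± 0.32, 3.03-fold, limma adjusted p = 0.00053). In regenerating fragments it read 2.92, 2.32, 2.54 and 1.91 (2.42 ± 0.39, 5.36-fold, limma adjusted p = 1.43e-05). In wild-type first leg discs its 4 arrays disagreed, at 2.17, -0.90, 2.01 and -1.12, and the contrast of regenerating over wild-type discs was 1.87 ± 0.55 (limma adjusted p = 0.017).

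CycD and Cdk4 encode a cyclin and its kinase, which drive growth in discs. CycD was 0.64 ± 0.12 and Cdk4 0.41 ± 0.12 in Wg-expressing discs over the reference (limma adjusted p = 0.000384 and 0.014). CycD was the only component called in Wg-expressing over wild-type first leg discs, at 0.92 ± 0.19 (limma adjusted p = 0.00398). In regenerating fragments over the reference 3 of 8 components were higher (ken, CycD and apt) and 1, a nucleoporin gene, was lower, at -0.74, where 15.9% of all probes were higher and 24.8% lower.

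Genes known to respond to the pathway were taken from a list of 15, of which 13 had a probe. In TD over V(wg) cells 3 of 10 tested were higher and 1 lower, and in TD over D(wg) cells 2 of 10 were higher and 2 lower. Over all probes 6.9% were higher and 6.54% lower in the first of these comparisons, and 10.4% and 7.45% in the second. Mmp1, a matrix metalloprotease expressed in wounded discs, was higher in both, at 2.33 ± 0.25 over V(wg) cells (5.03-fold, limma adjusted p = 1.28e-05) and 1.89 ± 0.32 over D(wg) cells (3.71-fold, limma adjusted p = 0.00206). zfh1, a transcription factor that responds to STAT in the testis, was lower in both, at -0.58 ± 0.13 and -0.56 ± 0.15 (limma adjusted p = 0.00266 and 0.0105).

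The other calls differed between the comparisons, and that difference was not tested. Over V(wg) cells Ilp8 was higher by 5.91 ± 0.79, and vir-1, a gene induced by virus through the pathway, by 0.84 ± 0.24 with the probe CG15493 (limma adjusted p = 8.83e-05 and 0.0161). The other vir-1 probe, CG5453, read 0.15, 1.26, 0.25, -0.51 and 0.18 there and was not called (0.30 ± 0.21, limma adjusted p = 0.392), so that call rests on 1 of 2 probes. Over D(wg) cells Ilp8 was 2.90 ± 1.02 and did not pass (limma adjusted p = 0.0596). There vvl, a POU-domain factor, was higher by 0.62 and crb, an apical polarity protein, was lower, at -0.89.

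In Wg-expressing discs over the reference 3 of 12 responding genes were higher and 0 lower, where 10.1% of all probes were higher and 11% lower. They were Ilp8 (5.70 ± 0.72), TotM, a stress-induced secreted protein (1.92 ± 0.28), and Mmp1 (0.73 ± 0.23), with limma adjusted p of 3.51e-05, 0.0041 and 0.0315. TotM read 2.39, 1.29, 2.75 and 1.26 on 4 arrays, but 0.41 on 1 TD against D(wg) array and 0.03 and 0.39 on 2 TD against V(wg) arrays. The Wg-expressing discs had been heat-shocked and no heat shock is stated for the reference, while TD, D(wg) and V(wg) cells shared it. Its part in the TotM result was not tested.

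**Figure D3:**
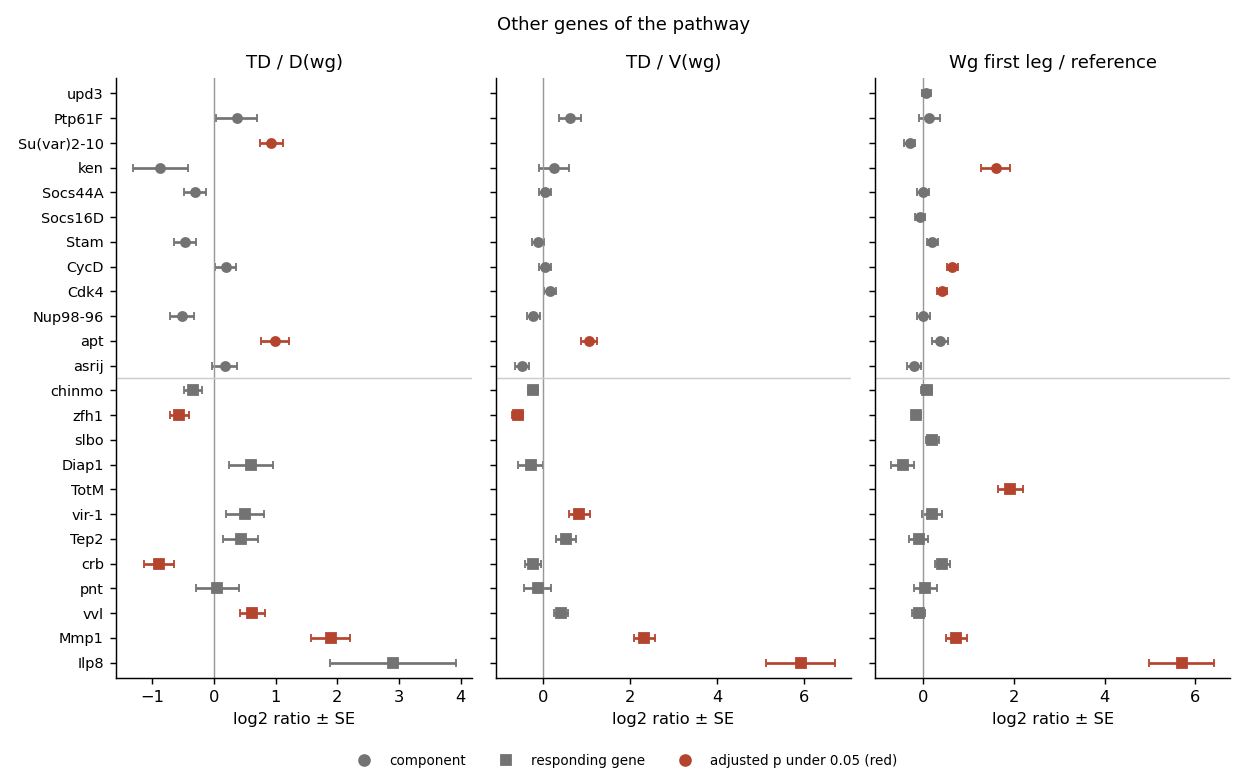
Fitted log2 ratio ± SE, 1 probe per gene, of other pathway components (circles, above the line) and responding genes (squares, below it) in TD over D(wg) cells, TD over V(wg) cells and Wg-expressing first leg discs over the reference, red where the adjusted p is under 0.05. apt, Mmp1 and zfh1 are red in both TD panels, and ken, CycD, Cdk4, TotM, Mmp1 and Ilp8 are red in the Wg panel; a gene without a mark was not tested.

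The patterns of the members across arrays were compared by an uncentred correlation, which is 1 where values are proportional, over the arrays that both genes share. The points share RNA pools and slides, so these are descriptions. upd1 and upd2 gave 0.818 over 18 arrays and upd1 and Socs36E 0.66 over 34. upd1 gave 0.41 with dome, 0.143 with Stat92E and 0.065 with hop. hop and Stat92E gave 0.452 over 39 arrays.

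Among named genes inside and outside the pathway, 4569 shared at least 20 arrays with upd1. The most similar was P5cr-2 (0.939 over 22 arrays), an enzyme of proline synthesis, followed by Ilp8 (0.927 over 20), Mmp1 (0.926 over 22), the mucin gene Muc55B (0.915 over 22) and the acetylcholine receptor subunit gene nAChRbeta3 (0.89 over 22). P5cr-2 was 1.86 ± 0.36 in TD over D(wg) cells, 2.29 ± 0.28 in TD over V(wg) cells and 1.56 ± 0.28 in Wg-expressing discs over the reference. nAChRbeta3 was 1.34 ± 0.38, 2.67 ± 0.29 and 1.90 ± 0.29 in the same comparisons. These genes were picked for their likeness to upd1 over the same arrays, so the values describe that likeness.

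Muc55B and P5cr-2 were also the nearest genes to Socs36E (0.838 and 0.788 over 21 arrays each), with Dora next (0.74 over 28). The genes nearest to the other members were different ones. They were Trxr2 for dome (0.75), TBC1D5 for hop (0.74) and plx for Stat92E (0.82). Mmp1 and Ilp8 are also on the list of responding genes.

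**Figure D4:**
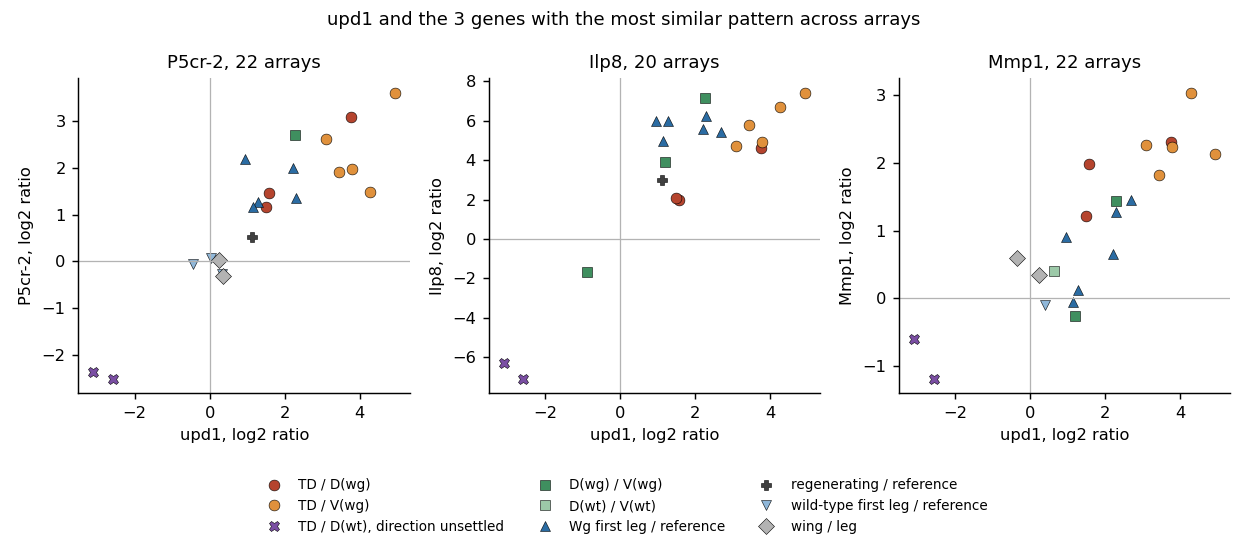
Log2 ratio of upd1 (x axis) against those of P5cr-2, Ilp8 and Mmp1 (y axes), 1 point per array with a value for both genes, with marks by comparison. Points of TD over D(wg) and TD over V(wg) arrays lie in the upper right of each panel, the 2 arrays labelled TD / D(wt) in the lower left, and 1 D(wg) over V(wg) array is negative for both upd1 and Ilp8.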

How the data were processed

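The samples were arrays of spotted probes hybridised with 2 labelled samples each, after 2 rounds of linear amplification, per the labels. The deposited values are log ratios with the sample named second on top, per the labels, which name no log base. They were taken as log2 because they lie around 0. The authors' filters and normalisation are not given in the sources read. All 39 arrays were turned by sign and centred on the median of their gene probes (medians as deposited -0.1143 to 0.2134). No spot intensities were used, so the signal over background is unknown and precision is limited by how few arrays a group has.

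Probe names were matched to release 6 gene symbols (15352 probes with 1 symbol, 486 with several, 523 with none), after leaving out 144 control spots. Each probe was fitted by least squares with 11 group terms and 1 dye term, and variances were moderated with limma 3.58.1 under R 4.3.3 (the prior had 3.57 degrees of freedom and an SD of 0.2793). The least squares were written out in place of lmFit to keep contrasts exact despite missing values. A probe was tested where at least 66.7% and at least 2 arrays of each group had a value. Tests are two-sided, adjusted by Benjamini-Hochberg over all probes of a comparison and called at 0.05. The fit was tested on simulated data. Intervals are at 95%.

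Arrays of a group are independent replicates, per the series' design text, and whether extracts are shared between groups is not stated. Where a gene has several probes, the one with most values stands for it. Named genes are the 7 members whatever their values, called genes of the 2 pathway lists, and the genes nearest to a member by uncentred correlation. upd3, Ptp61F, Socs44A, wg and vg were named beside them. The members and lists were chosen with earlier results of these data known. Alternatives were other centring, scaling, filters, dye terms, slide series and arrays left out.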

Additional observations from a re-analysis of the deposited data

Results flagged for a closer look

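In 20 groups of 4 to 10 member values, 1 array stood apart from the rest of its group in 2 cases, where chance flags about 1 in 20. For hop in TD against V(wg) cells, replicate 4 read 0.52 while the other arrays were negative. For hop in regenerating fragments against the reference, replicate 2 read 0.13 while the other 3 were negative. Without that regenerating array hop passed the test in both contrasts of this group with first leg discs. Against the reference itself hop was not called with any 1 array left out (lowest limma adjusted p = 0.0524).

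The ratio to the common reference differed between Wg-expressing and wild-type first leg discs for upd1, by 1.73 in the test of the difference (limma adjusted p = 0.0299). This is the contrast that slide series, heat shock and stock share with the groups.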

How the results depend on the processing

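No paired analysis was possible because the labels give no replicate numbers, and the numbers used follow the order of deposit. Over all members and comparisons, 705 values under another setting stayed on their side of the threshold, and 22 of these, none of them called, changed sign. A further 7 passed it newly, 7 no longer passed, and 1 called value turned its sign, upd1 on the arrays labelled TD against D(wt) (2.74 with both turned). With 1 array left out, 429 values stayed on their side (48 of these, none of them called, changed sign), 6 passed it newly and 9 no longer passed.

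The count of called members changed in these cases. With only the comparison's own arrays and no dye term it was 1 in Wg-expressing discs against the reference, 1 in TD against V(wg) cells, 3 in TD against D(wt) as labelled and 0 in regenerating fragments against the reference. With values as deposited it was 2 in TD against D(wg) cells and 2 in Wg-expressing discs against regenerating fragments. It was 2 in TD against D(wg) cells with a dye term for each slide series or a value required on every array. It was 1 in TD against V(wg) cells with a value required on every array, where upd2 is not tested. With array spread scaled it was 0 in regenerating fragments against the reference. Wg-expressing against wild-type first leg discs had 0 with array spread scaled, with a dye term for each series and with only the main slide series.

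With 1 array left out the count ran from 1 to 2 in TD against D(wg) cells, 1 to 2 in TD against V(wg) cells, 0 to 1 in TD against D(wt) cells, 0 to 1 in Wg-expressing against wild-type first leg discs, 0 to 1 in regenerating fragments against wild-type first leg discs and 0 to 2 in Wg-expressing discs against regenerating fragments. Leaving out a TD against D(wt) array leaves 1, assumed to vary like the other groups. The cause of these changes was not tested.

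Calls over all probes also moved. In TD against D(wg) cells 1640 probes were called, 955 higher and 685 lower, against 755 higher and 881 lower as deposited. Without its second array 473 were called and without the third 601. In TD against V(wg) cells 1171 were called, 276 with its own arrays only and 577 without the first. In D(wg) against V(wg) cells 25 were called, and 322 without the third array. upd1 stayed called in TD against D(wg) cells (1.54 to 2.84) and TD against V(wg) cells (3.67 to 4.49) in all settings run.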
